A study of Mus musculus with 18 samples.

Results

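Fc receptors are the proteins through which blood cells bind the constant part of antibodies. The 9 genes described here are the Fc receptors of B cells and myeloid cells and their relatives: Fcgr1, Fcgr2b, Fcgr3, Fcgr4, Fcer1g, Fcer2a, Fcrl1, Fcrla and Fcmr. They were chosen by name, as the probes of the array whose gene name is one of these symbols or an older symbol of the same gene, which is Faim3 for Fcmr and Fcgr3a for Fcgr4. All 9 were on the array, with 15 probes, out of 20255 named genes. All 15 probes were well above background on enough arrays to be tested, as were 13267 genes in all. Levels are given as the log2 of the scanner's processed signal minus the log2 of the 75th percentile of the same array, so a value of 0 means a probe as bright as that percentile. Values of different probes are not compared as levels.

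The samples were whole blood of male C57BL/6N mice aged 8 to 12 weeks, drawn from the heart 6 h after gamma irradiation with a cesium source or sham treatment, with 1 array per sample. There were 7 samples from sham-treated mice (0 Gy), 5 after 2 Gy and 6 after 8 Gy. RNA was purified with the RiboPure kit in 5, 4 and 6 samples of these groups and with the PAXgene kit in 2, 1 and 0, and globin RNA was removed from all of it. The study looked for transcripts that could serve as biomarkers of exposure.

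The activating receptors for IgG, which are FcγRI (Fcgr1), FcγRIII (Fcgr3) and FcγRIV (Fcgr4), need the common γ chain encoded by Fcer1g to reach the cell surface and to signal, and they trigger phagocytosis and the release of mediators in neutrophils, monocytes and macrophages. FcγRIIB (Fcgr2b) is the inhibitory receptor for IgG and is made by B cells as well as by myeloid cells. Fcer2a (CD23, a low-affinity receptor for IgE), Fcmr (a receptor for IgM), Fcrl1 (a receptor-like protein of the B cell surface) and Fcrla (a related protein that stays inside B cells) are known mainly from B cells.

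The 75th percentile of the processed signal was 138 to 425 intensity units in the sham group, 46.4 to 186 after 2 Gy and 58.4 to 232 after 8 Gy, so the irradiated arrays were on the whole dimmer. Precision is limited by how few arrays each dose has. There were 8 slides and 7 days of scanning. The array labelled 0 Gy replicate 5 stood apart from the other 6 arrays of its group in most of these genes, as the values below show, and so did 8 Gy replicate 1 in the genes of B cells. Both were kept as labelled. Values include the former, and the main fold changes, counts and correlations are also given without it. Both were singled out after their values were seen. In a bulk sample such as blood, fewer cells of a type and less RNA per cell cannot be told apart.

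At 8 Gy the genes fell into 3 groups. Fcgr3, Fcgr4 and Fcer1g rose, Fcer2a, Fcrl1, Fcrla and Fcmr fell, and Fcgr1 and Fcgr2b did not pass the threshold, an adjusted p of 0.05 in a limma model of dose and kit over all 18 arrays with Benjamini-Hochberg adjustment over 13267 genes. Of all genes tested, 12% passed, 7.64% higher and 4.31% lower. The median log2 fold change was -0.02 over the 9 genes and 0.08 over all genes. Without the array labelled 0 Gy replicate 5, Fcgr1 rose as well, so that 4 rose and 4 fell, where 22.8% of all genes passed (15.5% higher and 7.3% lower). The same 4 rises and 4 falls passed when 8 Gy replicate 1 was left out in addition. With normexp background correction and without 0 Gy replicate 5, Fcgr4 was the rise that passed beside the 4 falls (5 of 9), and Fcgr1 was at 0.36 (limma, adjusted p = 0.392), Fcgr3 at 0.95 (0.0736) and Fcer1g at 0.79 (0.167), while 3099 of all genes passed.

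**Figure D1:**
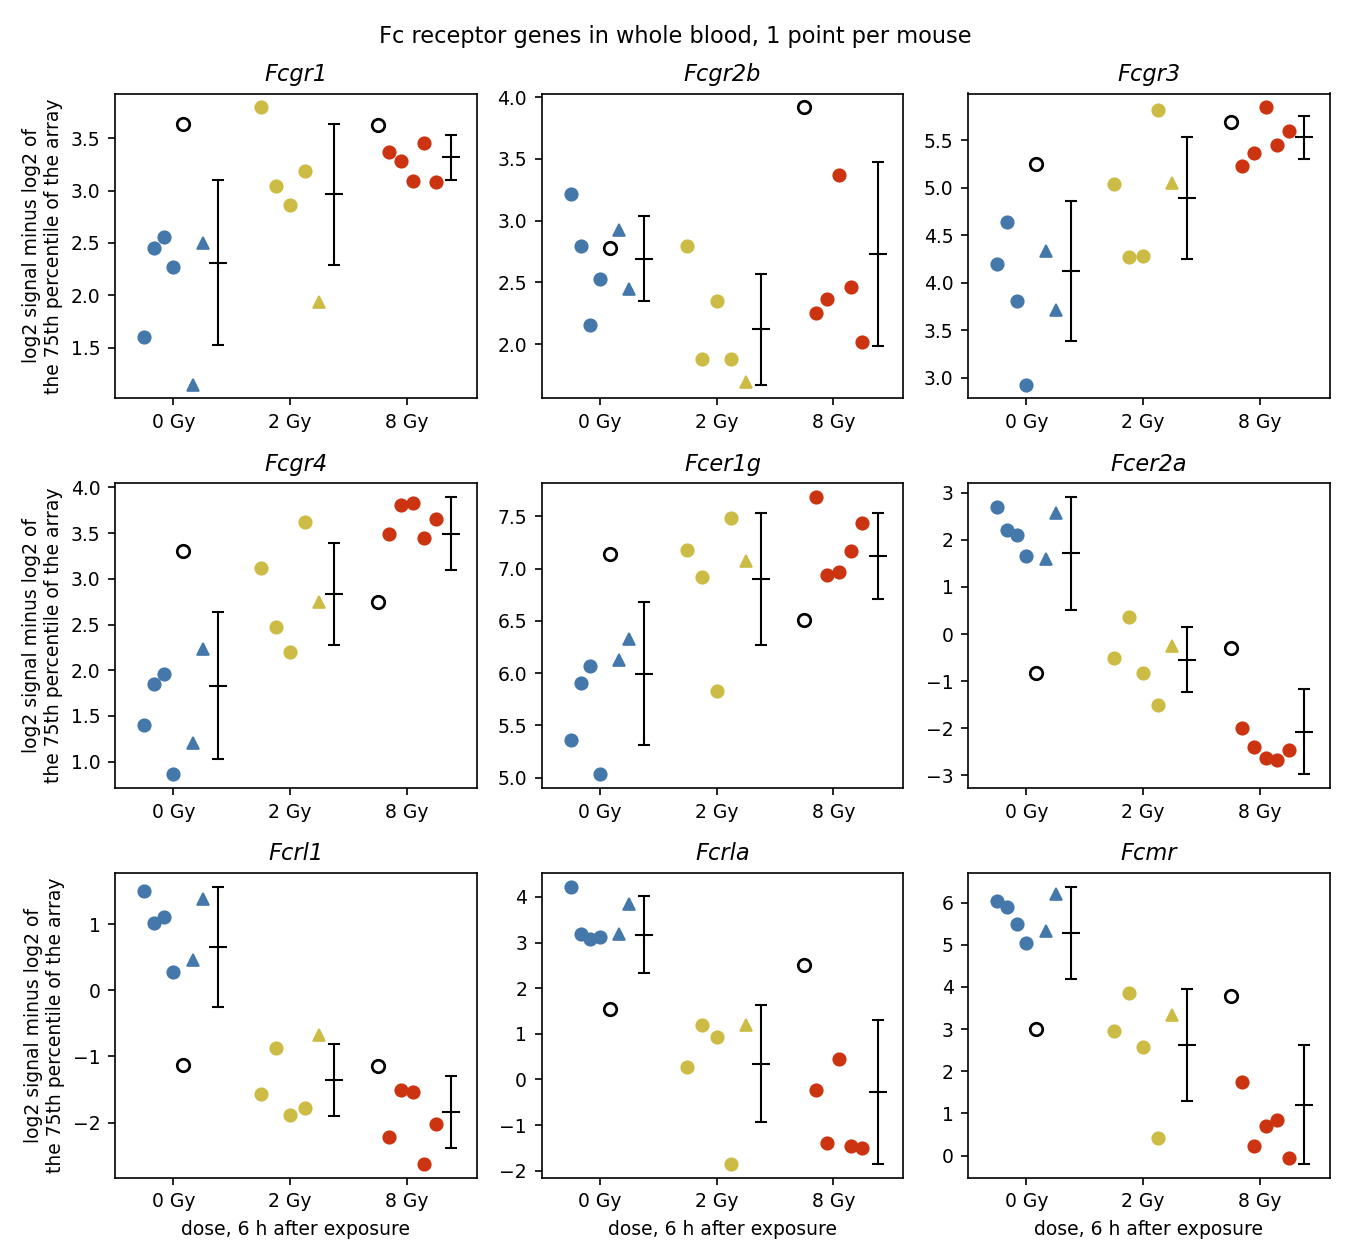
Level of each gene in every sample (log2 signal minus log2 of the 75th percentile of the array), by dose: circles are RiboPure and triangles PAXgene samples, open black circles are 0 Gy replicate 5 and 8 Gy replicate 1, and black bars are means ± SD (n = 7, 5 and 6). Fcer2a, Fcrl1, Fcrla and Fcmr lie lower after irradiation and Fcgr3, Fcgr4 and Fcer1g higher, while Fcgr2b overlaps between all doses.

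Fcgr4, the activating receptor for IgG2 antibodies on neutrophils and monocytes, had the largest rise of the 9. Its levels were 0.86 at the lowest, 1.85 at the median and 3.31 at the highest of 7 arrays at 0 Gy, and 2.74, 3.57 and 3.82 of 6 arrays at 8 Gy. The highest 0 Gy value belonged to replicate 5 and the lowest 8 Gy value to replicate 1, and these were the only values through which the groups overlapped. The mean went from 1.83 ± 0.80 (SD, n = 7) to 3.49 ± 0.40 (n = 6), a log2 fold change of 1.62 ± 0.36 (SE), or 3.08-fold (limma, adjusted p = 0.018). It was 1.94 ± 0.31 without 0 Gy replicate 5 (adjusted p = 0.00124). The call was lost without 0 Gy replicate 1 (1.52, adjusted p = 0.0543), with normexp (1.01, 0.0824), with the replicate number as a block (1.58, 0.0675) and in the slide, scan day and brightness fits. Its probe lies on chromosome 1 from 171006083 to 171006142 on the mouse build mm7, the build of the file headers.

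Fcgr3, the low-affinity activating receptor of neutrophils, monocytes and NK cells, ranged from 2.93 to 5.25 at 0 Gy with a median of 4.20. At 8 Gy it ranged from 5.23 to 5.85 with a median of 5.53. The 8 Gy arrays were close together, with an SD of 0.22 against 0.74 at 0 Gy, and the 0 Gy group reached into their range only with replicate 5. The log2 fold change was 1.40 ± 0.34, or 2.64-fold (limma, adjusted p = 0.0245), and 1.64 ± 0.32 without 0 Gy replicate 5 (adjusted p = 0.00355). The call was lost without 0 Gy replicate 1 (adjusted p = 0.0604), 8 Gy replicate 4 (0.0538) or 8 Gy replicate 6 (0.0536). It was also lost by a small margin under quantile normalization (1.07, adjusted p = 0.0517) and by more with normexp background correction (0.75, adjusted p = 0.156). In all, the call held in 23 of 38 other settings. Other losses included RiboPure arrays alone (limma, adjusted p = 0.0608), the replicate number as a block (0.1), median scaling (0.0539) and the deposited table (0.0521).

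Fcer1g, the signalling chain that these receptors share with the high-affinity receptor for IgE, had levels of 5.03, 6.07 and 7.14 (lowest, median and highest) at 0 Gy and 6.51, 7.07 and 7.68 at 8 Gy. Replicate 5 was again the highest array at 0 Gy, and without it the groups did not overlap. The log2 fold change was 1.21 ± 0.34, or 2.31-fold (limma, adjusted p = 0.0378), and 1.48 ± 0.30 without that array (adjusted p = 0.00497). This was the least stable of the 7 calls: it held in 13 of 38 other settings. It was lost without any 1 of 0 Gy replicates 1, 2, 3, 4 and 7, 2 Gy replicate 5 and 8 Gy replicates 2 to 6 (adjusted p up to 0.0909), and under quantile normalization (0.68, adjusted p = 0.102). The other probe of the gene had a log2 fold change of 0.98 ± 0.33, which did not pass when all 22038 probes were tested (limma, adjusted p = 0.0627).

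Fcgr1, the high-affinity receptor for IgG of monocytes and macrophages, had a range of 1.15 to 3.64 at 0 Gy (median 2.46) and of 3.08 to 3.63 at 8 Gy (median 3.33). All 6 arrays at 8 Gy were above the other 6 arrays at 0 Gy, and 0 Gy replicate 5 was above all of them. The log2 fold change was 0.75 ± 0.31 with all arrays (limma, adjusted p = 0.103) and 0.98 ± 0.28 without replicate 5 (adjusted p = 0.0213). It was the gene of the 9 that differed most between the kits, by -0.90 ± 0.35 for PAXgene against RiboPure, which was no call (limma, adjusted p = 0.167, unadjusted p = 0.0196). In that comparison 0 of the 9 genes passed in limma, 1 had an unadjusted p under 0.05, and 3.22% of 13266 genes passed (1.92% higher and 1.3% lower in PAXgene).

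Fcgr2b, the inhibitory receptor, lies near Fcgr3 and Fcgr4 in a cluster on chromosome 1 and did not pass the test at 8 Gy. Its levels were 2.16, 2.78 and 3.22 (lowest, median and highest) at 0 Gy, and 2.01, 2.41 and 3.92 at 8 Gy. The 8 Gy arrays spread to both sides of the 0 Gy arrays, with 8 Gy replicate 1 at the top. The log2 fold change was -0.02 ± 0.31 with a 95% interval from -0.68 to 0.64 (limma, adjusted p = 0.973), so a change of up to that size in either direction is not excluded. Leaving out 0 Gy replicate 5 gave -0.01 ± 0.34. The sign of this small value changed in 14 of 38 other settings and it passed in 0 of them.

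The array carries 3 probes for Fcgr2b and 2 for Fcgr3, and the sequences of 1 probe of each are shown because the genes are close relatives in sequence and the difference between them rests on the probes telling them apart. Both are printed 5′ to 3′ as the scanner files give them.
Fcgr2b: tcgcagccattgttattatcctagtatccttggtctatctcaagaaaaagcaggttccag
Fcgr3: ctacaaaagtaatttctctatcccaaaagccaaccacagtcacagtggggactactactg
The Fcgr2b probe lies on chromosome 1 from 170942178 to 170942237 and the Fcgr3 probe on chromosome 1 from 171030474 to 171030533, both on the minus strand of mm7. No run of more than 7 bases is shared by any Fcgr2b probe and any Fcgr3 probe, none of more than 9 by probes of any 2 different genes among the 9, and no other probe of the array shares a run of 20 bases with any of the 15. Probes were compared with probes only, not with the transcript of the other gene. Probes at different places of 1 gene also share short runs, 5 bases for the 2 Fcgr3 probes. The comparison therefore cannot show that the probes tell Fcgr2b and Fcgr3 apart, which was not tested. The printed Fcgr3 probe had a log2 fold change of 1.14 ± 0.29 (limma over 22038 probes, adjusted p = 0.0268), beside 1.40 for the probe that stood for the gene. The 3 Fcgr2b probes gave -0.02, -0.01 and 0.17, the last being the printed one. The probes of a gene thus gave like values in both cases.

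The difference between both genes was also taken within each array, where the scaling of the array cancels. Fcgr2b minus Fcgr3 had a mean of -1.43 ± 0.66 (SD, n = 7) at 0 Gy and -2.80 ± 0.61 (n = 6) at 8 Gy. Its range was -2.48 to -0.40 in the sham group and -3.59 to -1.77 at 8 Gy, so the groups overlapped. The change of -1.37 had an exact 2-sided permutation p of 0.00524 over 1716 splits of the arrays, and of 0.021 adjusted by Benjamini-Hochberg over the 4 pairs compared. It missed the threshold in RiboPure arrays alone (-1.33, exact adjusted p = 0.0606) and without 8 Gy replicate 6 (-1.21, 0.0505), and was -1.54 without 0 Gy replicate 5 (exact adjusted p = 0.0173). Fcgr4 minus Fcgr1 went up by 0.66 (exact p = 0.0478, adjusted p = 0.0956) and by 0.87 without 8 Gy replicate 1 (exact adjusted p = 0.0101). For Fcgr3 minus Fcer1g, receptor against chain, the change was 0.28 (exact p = 0.368, adjusted p = 0.368), and for Fcer2a minus Fcmr, the IgE and IgM receptors of B cells, it was 0.29 (exact p = 0.312, adjusted p = 0.368).

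**Figure D2:**
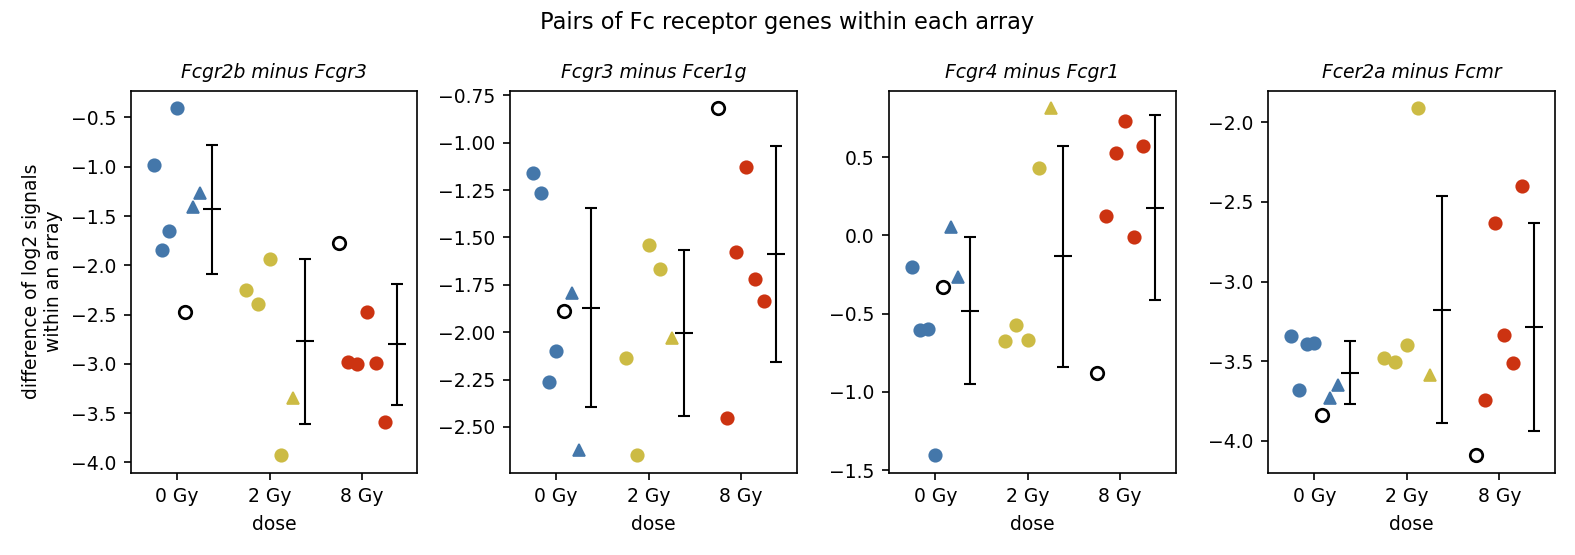
Difference of the log2 signals of 2 genes within each array, by dose, for the 4 pairs compared, with means ± SD and symbols for kit and for 0 Gy replicate 5 and 8 Gy replicate 1 (open circles) as in the plot of levels by dose. Fcgr2b minus Fcgr3 is lower at 8 Gy (mean -2.80) than at 0 Gy (mean -1.43), and the open 8 Gy circle is the lowest point of its group for Fcgr4 minus Fcgr1 and for Fcer2a minus Fcmr.

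The 4 genes known from B cells fell by more than any of the others rose. Fcer2a ranged from -0.84 to 2.70 at 0 Gy with a median of 2.11, and from -2.67 to -0.30 at 8 Gy with a median of -2.43. The next 0 Gy array after replicate 5 was at 1.59, and no 8 Gy array reached it. It fell by 3.65 ± 0.55, or 12.6-fold (limma, adjusted p = 0.00831), and was 5th of 13267 genes by p. With 0 Gy replicate 5 left out the log2 fold change was -4.18 ± 0.43 (adjusted p = 4.12e-05). The probe (chromosome 8 from 3644433 to 3644492, mm7) exceeded the background clearly on all 7 sham arrays and on 3 of 6 at 8 Gy, so the size of the fall rests in part on values near the background. With normexp, which raises dim values, it was -2.38 (adjusted p = 0.00323).

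Fcmr, which was brighter than the background on all 18 arrays, ranged from 3.00 to 6.21 at 0 Gy with a median of 5.50 and from -0.05 to 3.79 at 8 Gy with a median of 0.77. The groups overlapped only because 0 Gy replicate 5 was at 3.00 and 8 Gy replicate 1 at 3.79. It fell by 3.86 ± 0.69, or 14.5-fold (limma, adjusted p = 0.00887), and by 4.31 ± 0.66 without 0 Gy replicate 5 (0.000988). Normexp left it at -4.07 (adjusted p = 0.00111). Its probe is on chromosome 1 from 130784934 to 130784993 (mm7).

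Fcrla was at 1.54, 3.19 and 4.22 (lowest, median and highest) at 0 Gy and at -1.50, -0.81 and 2.51 at 8 Gy. The 8 Gy group had the largest spread of any gene and group here, with an SD of 1.57, since replicate 1 stood at 2.51 and the next array at 0.45. The fall was 3.24 ± 0.68, or 9.47-fold (limma, adjusted p = 0.014). Without 0 Gy replicate 5 the groups did not overlap and the log2 fold change was -3.56 ± 0.70 (adjusted p = 0.00383).

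Fcrl1, by the probe that stood for it, was the gene of the 9 whose groups did not overlap with all arrays in, which held for 1.67% of all genes (0.829% higher and 0.844% lower). Its range was -1.13 to 1.49 at 0 Gy (median 1.01) and -2.62 to -1.15 at 8 Gy (median -1.78). It fell by 2.34 ± 0.39, or 5.08-fold (limma, adjusted p = 0.00848), and by 2.70 ± 0.32 without 0 Gy replicate 5 (0.000159). With normexp the fall was smaller, at -1.30 ± 0.29 (adjusted p = 0.0112). At 8 Gy 4 of 6 arrays had that probe well above background. The gene's other probe was well above background on all 18 arrays. It fell by 2.00 ± 0.40 (limma over 22038 probes, adjusted p = 0.0115). By that probe the groups did overlap with all arrays in, as its lowest 0 Gy value lay below its highest 8 Gy value. The lack of overlap thus held for only 1 of the probes of Fcrl1. The sequence of the other probe is given because it was well above background on every array.
Fcrl1: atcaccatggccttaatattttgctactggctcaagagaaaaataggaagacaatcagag
It lies on chromosome 3 from 87498586 to 87499611 on the plus strand of mm7, a span longer than the 60 bases of the probe.

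Without 0 Gy replicate 5, 8 of the 9 genes had no overlap between 8 Gy and 0 Gy, namely all but Fcgr2b, where 9.16% of all genes had none (6.18% higher and 2.98% lower). The 4 falls of the B cell genes passed without any single array. The count of 7 calls was 4 without 0 Gy replicate 1, since the 3 rises then missed the threshold, and 8 without 0 Gy replicate 5, where 268 and 3026 of all genes passed, against 1586 with all arrays. It was 5 under quantile normalization and with the deposited table, where Fcgr4 was the rise that passed and 1091 and 1086 of all genes did. It was 4 with normexp, where the 4 falls passed and no rise did, while the count over all genes was 2048. With a block for the slide or for the scan day, or with the brightness of the array as a covariate, 0 of the 9 passed in limma, and 0 with the slide as a block without 0 Gy replicate 5. Over all genes 0 passed in each of the first 3 of these fits and 6 in the last, while 1131, 2461, 1789 and 2527 had an unadjusted p under 0.05. In the slide block fit Fcer2a was at -3.64 ± 0.86 (adjusted p = 0.501) and Fcgr4 at 1.41 ± 0.64 (0.582), and with brightness as a covariate they were at -3.06 ± 0.59 (0.132) and 1.36 ± 0.42 (0.229). On the slide that held both doses (2 arrays at 8 Gy and 1 at 0 Gy), the differences were -5.22 for Fcer2a, -5.58 for Fcmr, -4.69 for Fcrla and -3.02 for Fcrl1, and 1.41 for Fcgr3, 2.42 for Fcgr4, 1.60 for Fcer1g, 1.59 for Fcgr1 and -0.35 for Fcgr2b. The part of slide and brightness in these results was not tested beyond these fits.

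**Figure D3:**
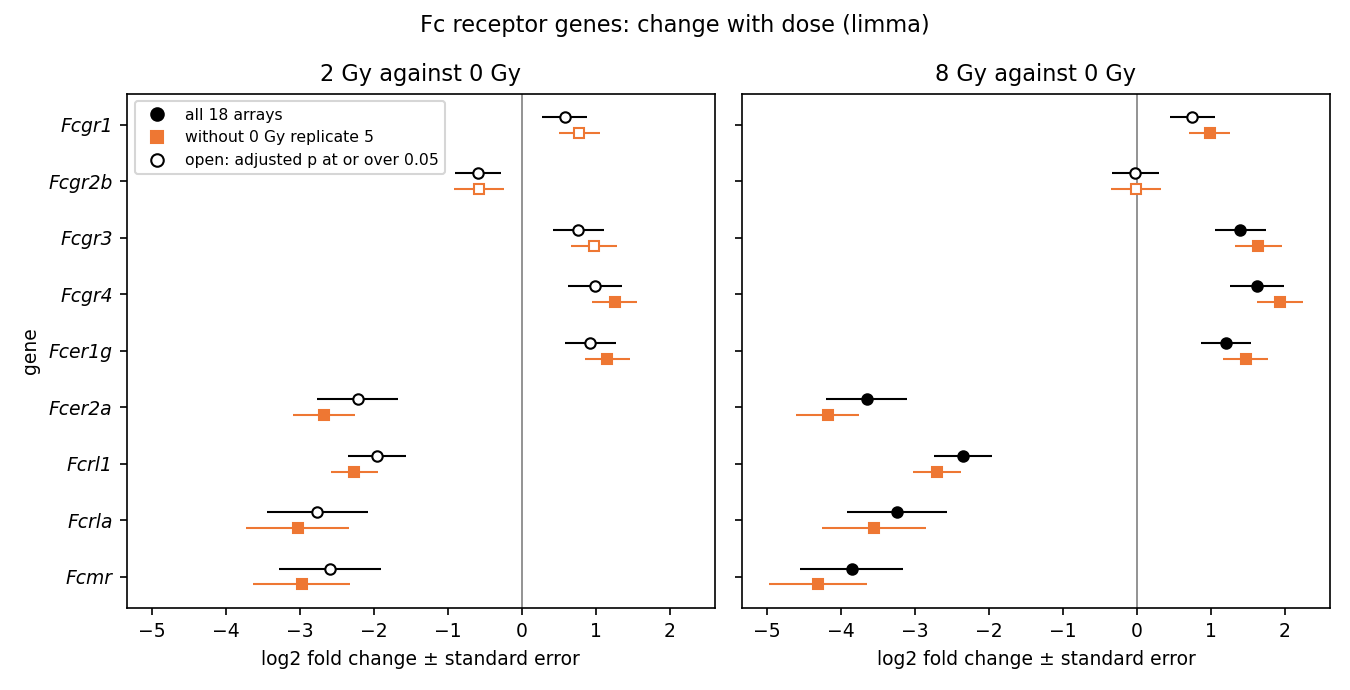
Log2 fold change ± standard error of each gene at 2 Gy and at 8 Gy against 0 Gy, with all 18 arrays (black circles) and without 0 Gy replicate 5 (orange squares). Filled symbols passed an adjusted p of 0.05 in limma: 0 of 9 at 2 Gy and 7 of 9 at 8 Gy with all arrays, and 6 and 8 without that array.

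At 2 Gy the comparison asks whether the lower dose leaves the same mark. With all arrays 0 of the 9 genes passed in limma, 7 had an unadjusted p under 0.05, and 0.0528% of all genes (7 of 13267) passed, 0.0301% higher and 0.0226% lower. Without 0 Gy replicate 5, Fcgr4 and Fcer1g rose and Fcer2a, Fcrl1, Fcrla and Fcmr fell, where 6.99% of all genes passed (4.12% higher and 2.86% lower). The count was 4 without 8 Gy replicate 1, whose removal leaves fewer arrays to estimate the spread but takes none from either group compared, and 1 without 2 Gy replicate 3, where 158 and 212 of all genes passed. These comparisons share the 0 Gy arrays with those at 8 Gy.

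Among the B cell genes, Fcer2a stood at -0.51, 0.36, -0.84, -1.50 and -0.25 in 2 Gy replicates 1 to 5. These were all below the 0 Gy arrays other than replicate 5, whose -0.84 equalled the value of 2 Gy replicate 3 on the same slide. The log2 fold change was -2.22 ± 0.55 (limma, adjusted p = 0.0859) and -2.67 ± 0.42 without replicate 5 (adjusted p = 0.00355). Fcmr was at 2.97, 3.87, 2.56, 0.41 and 3.34. Its log2 fold change was -2.59 ± 0.69 (limma, adjusted p = 0.101) and -2.98 ± 0.65 without replicate 5 (adjusted p = 0.0177). The low value of 0.41 came from 2 Gy replicate 4, the dimmest of the 18 arrays. On that array Fcer2a, Fcrl1 and Fcrla were not well above background.

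Fcrla was at 0.26, 1.19, 0.94, -1.85 and 1.20, all below the lowest 0 Gy value of 1.54, which made it the gene of the 9 with no overlap at 2 Gy with all arrays in (1.15% of all genes had none, 0.173% higher and 0.98% lower). Its log2 fold change was -2.76 ± 0.68 (limma, adjusted p = 0.0859) and -3.03 ± 0.69 without replicate 5 (adjusted p = 0.0204). Fcrl1 was at -1.56, -0.87, -1.88, -1.77 and -0.67, with -1.96 ± 0.39 (limma, adjusted p = 0.0625) and -2.27 ± 0.32 without replicate 5 (adjusted p = 0.00148). With that array left out all 4 of these genes lay below 0 Gy with no overlap, and the other 5 genes overlapped. Of all genes 4.64% had no overlap then, 1.97% higher and 2.66% lower.

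Among the receptors of myeloid cells, Fcgr4 was at 3.12, 2.47, 2.20, 3.62 and 2.75 at 2 Gy, with a log2 fold change of 0.99 ± 0.36 (limma, adjusted p = 0.169) and 1.26 ± 0.31 without 0 Gy replicate 5 (adjusted p = 0.0261). Fcer1g was at 7.18, 6.92, 5.83, 7.48 and 7.08, with 0.93 ± 0.34 (limma, adjusted p = 0.168) and 1.16 ± 0.30 without replicate 5 (adjusted p = 0.0333). In both genes 2 Gy replicate 3 was the lowest of its group. Fcgr3 (0.77 ± 0.34, limma, adjusted p = 0.226) and Fcgr1 (0.58 ± 0.31, adjusted p = 0.291) did not pass with all arrays, nor without replicate 5 (adjusted p = 0.0691 and 0.0869). Fcgr2b was at 2.79, 1.88, 2.35, 1.88 and 1.69, with -0.59 ± 0.31 (limma, adjusted p = 0.295).

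On slides that held 2 Gy and 0 Gy arrays together, Fcer2a differed by -2.28 on a slide of 2 arrays against 1 and by -1.84 on a slide of 1 against 1. On the third such slide, which held 0 Gy replicate 5 and 2 Gy replicate 3, the difference was 0.00. For Fcgr4 the same slides gave 0.95, 1.55 and -1.11, and for Fcmr -2.47, -1.98 and -0.44. The slide with 0 Gy replicate 5 was thus the one that gave the smallest difference in the B cell genes named here and the opposite sign in Fcgr4.

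Between 8 Gy and 2 Gy, 0 of the 9 genes and 0% of all genes passed in limma, while 1 of the 9 and 416 of all had an unadjusted p under 0.05. In 0 of the 9 genes were the arrays of both doses apart, against 0.181% of all genes (0.0754% higher and 0.106% lower). The 1 gene was Fcer2a, with a log2 fold change of -1.43 ± 0.58 (unadjusted p = 0.0238, limma, adjusted p = 0.927). Fcmr was at -1.27 ± 0.73, Fcrla at -0.48 ± 0.72 and Fcrl1 at -0.38 ± 0.41. For Fcrl1 the 95% interval ran from -1.25 to 0.49, so a further fall of that size from 2 to 8 Gy is not excluded. Fcgr3 (0.63 ± 0.36) and Fcgr4 (0.63 ± 0.38) had positive values, and Fcgr2b was at 0.57 ± 0.33. On the slide that held both doses (3 arrays at 8 Gy, with replicate 1 among them, and 2 Gy replicate 4) the sign was the opposite for Fcgr3 (-0.35), Fcgr4 (-0.40) and Fcer1g (-0.36), and for Fcrla (2.12) and Fcmr (1.72), and Fcer2a was at -0.15.

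Markers of some blood cell types changed as well, most of all those of B cells and neutrophils. At 8 Gy, where 4.31% of all genes passed as lower and 7.64% as higher, 13 of 14 B cell markers fell. The 14 had a median log2 fold change of -3.09, and among the falls were Cd79b (-3.58, limma, adjusted p = 0.00848) and Ms4a1 (-3.23, 0.00906). Their summed level, in multiples of the 75th percentile, was 46.7 to 345 in the sham group (median 232.6), 10.1 to 51.7 after 2 Gy (median 31.6) and 8.15 to 86.6 after 8 Gy (median 12.9). The 46.7 belonged to 0 Gy replicate 5 and the 86.6 to 8 Gy replicate 1. On single arrays 12 to 14, 7 to 13 and 8 to 14 of the 14 were well above background at 0, 2 and 8 Gy. Of 13 neutrophil markers 11 rose, with a median of 2.31, among them S100a9 (1.68, adjusted p = 0.0317) and S100a8 (2.40, 0.026), and their summed level was 474 to 2624, 1182 to 5470 and 1594 to 4068 at 0, 2 and 8 Gy. The 2624 belonged to 0 Gy replicate 5. Of the 11 monocyte, 10 NK cell and 11 T cell markers 0 passed in limma at 8 Gy (medians 0.26, 0.25 and -0.30), while 3, 2 and 1 had an unadjusted p under 0.05, and their summed levels overlapped between the doses. The brightest of them were F13a1 (0.59) and Adgre1 (0.26), Nkg7 (0.89) and Gzma (-0.03), and Cd5 (-0.43) and Cd3d (-0.09). Of 7 platelet markers 3 rose (median 1.04), among them Pf4 (1.05, adjusted p = 0.0393), with Ppbp at 0.94 (0.0558). Of 7 erythroid markers 0 passed in limma (median 0.85) and 4 had an unadjusted p under 0.05, with Alas2 at 1.00 and Hba-a1 at 1.00. Of 5 eosinophil and basophil markers 1 fell (median 0.79) and 4 had an unadjusted p under 0.05. The brightest of them were Gata2 (0.79) and Ccr3 (-0.86), neither of which passed. Leaving out 0 Gy replicate 5, all 7 platelet markers rose (median 1.25), as did 12 of 13 neutrophil markers, 2 NK cell markers and 1 erythroid marker, and 13 B cell markers fell while 1 rose. Among the eosinophil and basophil markers 1 rose and 1 fell without that array. Of all genes 15.5% then passed as higher and 7.3% as lower. At 2 Gy 0 of the 14 B cell and 0 of the 13 neutrophil markers passed in limma with all arrays, with 13 and 10 at an unadjusted p under 0.05, and 13 fell and 8 rose without that array. Of all genes 0.0528% passed at 2 Gy with all arrays, and 2.86% as lower and 4.12% as higher without that array. The part of cell numbers in the changes of the Fc receptor genes was not tested.

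Over the 18 arrays, Fcmr had a Pearson r of 0.986 with the log2 summed level of the B cell markers, Fcrla 0.974, Fcer2a 0.969 and Fcrl1 0.932. After the means of dose and kit had been removed, these were 0.970, 0.928, 0.931 and 0.718. Fcgr4 had an r of 0.908 with the neutrophil markers, Fcer1g 0.859, Fcgr3 0.824 and Fcgr1 0.665, and 0.791, 0.774, 0.628 and 0.360 after removal. For some of these genes another list had a value as high or higher. Fcer1g had its highest r with the platelet markers, 0.966 (0.941 after removal), and Fcgr4 had 0.875 with them (0.806). Fcgr3 had 0.738 with the monocyte markers (0.658). Fcgr1 had 0.665 with them (0.440), and after removal its highest was 0.556 with the NK cell markers. Fcgr2b had 0.289 with B cell (0.471 after removal), -0.309 with neutrophil (-0.422) and 0.405 with monocyte markers (0.436), and its largest in size was -0.564 with the erythroid markers (-0.648). Over the 17 arrays without 0 Gy replicate 5, r was 0.986 for Fcmr and 0.971 for Fcer2a with B cell markers, 0.906 for Fcgr4 with neutrophil markers and 0.965 for Fcer1g with platelet markers. The summed levels add signals that are not on a log scale, so the brightest markers weigh most in them. Those were Cd79b and Ms4a1 for B cells, and S100a9 for neutrophils (mean 10.31 over 18 arrays, against 7.34 for S100a8, the next). The values of r thus describe the brightest markers more than the whole lists. They describe 18 arrays that share their scaling and are given without a test.

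**Figure D4:**
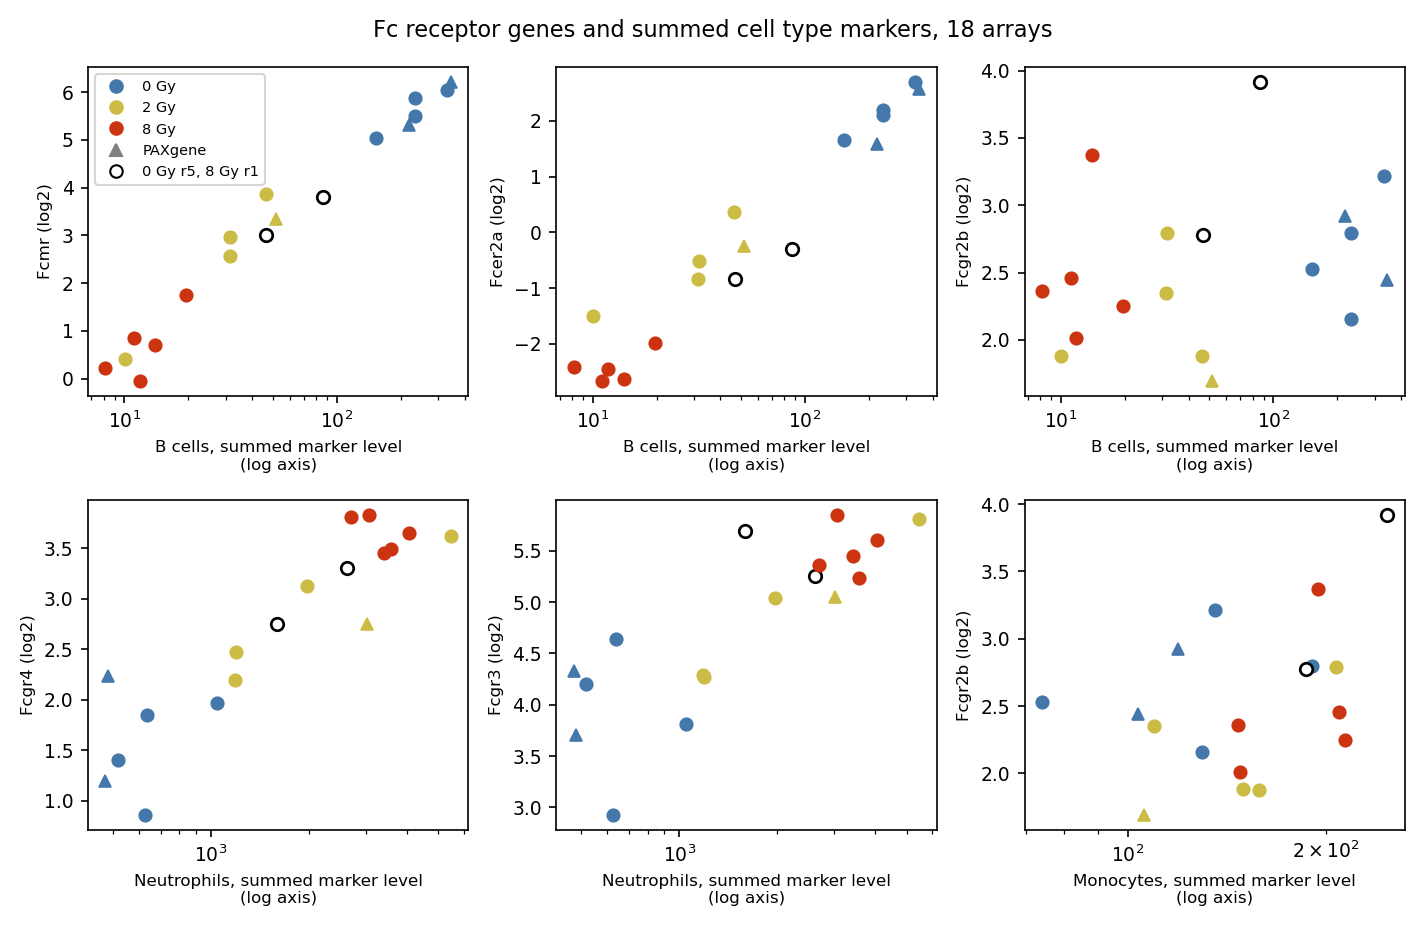
Level of a gene (log2 signal minus log2 of the 75th percentile) against the summed level of cell type markers (multiples of the 75th percentile, log axis) in 18 arrays, coloured by dose, with triangles for PAXgene and open circles for 0 Gy replicate 5 and 8 Gy replicate 1. Fcmr and Fcer2a follow the B cell markers (r = 0.986 and 0.969) and Fcgr4 and Fcgr3 the neutrophil markers (r = 0.908 and 0.824), while Fcgr2b follows neither B cell nor monocyte markers closely (r = 0.289 and 0.405).

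The genes themselves formed 2 blocks in the same 18 arrays. The 4 B cell genes had pairwise r from 0.895 (Fcrl1 and Fcrla) to 0.973 (Fcer2a and Fcmr). Fcgr3, Fcgr4 and Fcer1g had r from 0.790 to 0.897, highest for Fcgr4 and Fcer1g, and Fcgr1 had 0.577 to 0.757 with them. Fcgr2b had r between -0.326 (Fcer1g) and 0.410 (Fcrla) with the other 8. After removal of the dose and kit means, Fcer2a and Fcmr still had 0.913, Fcgr4 and Fcer1g 0.852, and Fcgr2b and Fcrla 0.621. Over the 17 arrays without 0 Gy replicate 5 the range was 0.901 to 0.975 in the first block and 0.786 to 0.893 in the second.

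**Figure D5:**
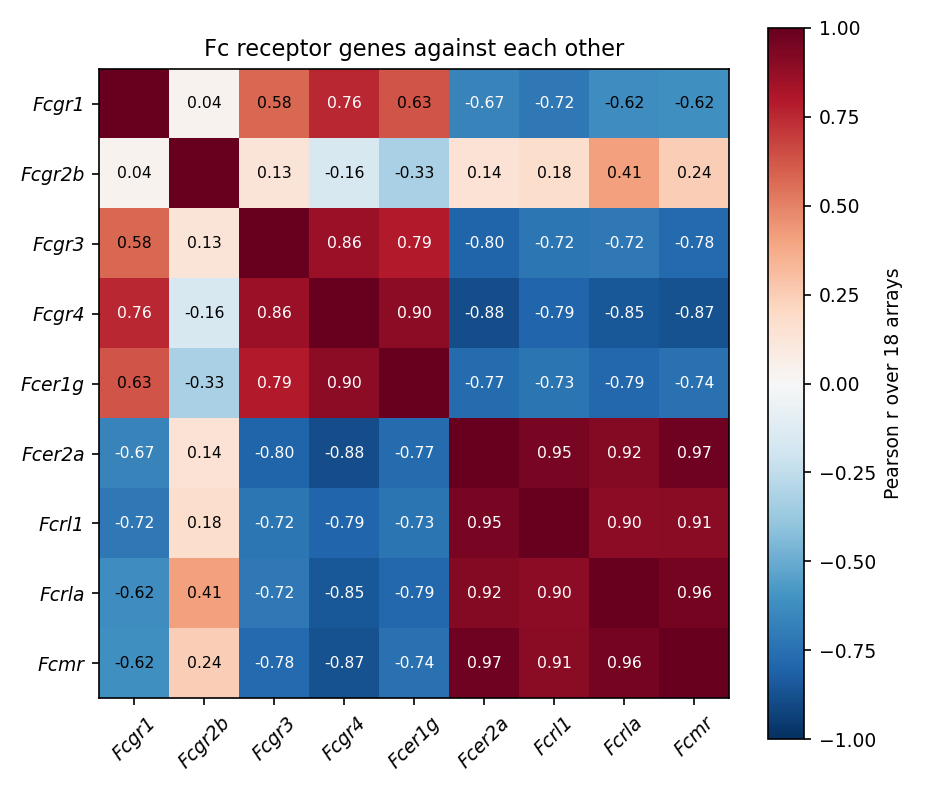
Pearson r between the log2 levels of each pair of the 9 genes over 18 arrays, from -1 (blue) to 1 (red). Fcer2a, Fcrl1, Fcrla and Fcmr form a block from 0.895 to 0.973 and Fcgr3, Fcgr4 and Fcer1g a block from 0.790 to 0.897, and the row of Fcgr2b is pale, from -0.326 to 0.410.

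Among the other genes tested, those named for the highest r over 18 arrays were Cd79b (0.989), H2-Oa (0.986) and 2010309G21Rik (0.982) for Fcmr, Cd22 (0.989), 2010309G21Rik (0.985) and Tnfrsf13c (0.978) for Fcrla, Pla2g2d (0.982), Ell3 (0.974) and Cpm (0.972) for Fcer2a, and Cd200 (0.973), Btla (0.971) and Tshz1 (0.970) for Fcrl1. Cd79b signals for the B cell receptor, Cd22 an inhibitory receptor of B cells and Tnfrsf13c the receptor for BAFF. For Fcgr3 they were Slc2a6 (0.973), Bst1 (0.959) and Apobec1 (0.955), for Fcgr4 Gadd45b (0.969) and Sirpb1a (0.962), and for Fcer1g Myl9 (0.968), Zyx (0.967) and Rhog (0.966). For Fcgr1 they were P2ry6 (0.894), Creg2 (0.870) and Mpeg1 (0.866), and for Fcgr2b Cmtm3 (0.870), 8030453O22Rik (0.861) and Gusb (0.856). The highest r found for Fcgr1 and Fcgr2b was thus below those of the other 7 genes.

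Of 5 other Fc receptor genes measured, 0 passed at 8 Gy in limma, and 1 had an unadjusted p under 0.05: Fcgrt, for the neonatal Fc receptor, at -1.22 ± 0.55 (adjusted p = 0.131). Fcer1a, Fcrls, Fcrl5 and Trim21, an antibody receptor of the cytosol, lay between -0.52 and 0.09. Among 29 measured genes of Fc receptor signalling, 3 rose and 2 fell (median 0.38), a share near the 12% of all genes that passed, so the count is no result about the list. The rises were those of the adaptor chain Tyrobp (1.18 ± 0.32, limma, adjusted p = 0.0319), the kinase Fgr (1.40 ± 0.41, 0.0409) and the phosphatase Ptpn11 (0.98 ± 0.28, 0.0395). The falls were those of the adaptors Blnk of B cells (-2.44 ± 0.56, 0.0196) and Lat2 (-1.13 ± 0.27, 0.0226). Syk, the kinase that the γ chain recruits, was at 0.13 ± 0.31 (adjusted p = 0.803), and the phosphatase Inpp5d (SHIP-1), through which FcγRIIB inhibits, at 0.28 ± 0.23 (adjusted p = 0.404). Leaving out 0 Gy replicate 5 made this 5 rises and 3 falls, where 22.8% of all genes passed.

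Of 7 receptors that also signal through the Fcer1g chain, 3 rose at 8 Gy, where 7.64% of all genes did, and 4 did not pass (median 0.99). They were the C-type lectins Clec4n (1.94 ± 0.44, limma, adjusted p = 0.0195), Clec4e (1.88 ± 0.44, 0.0203) and Clec4d (1.89 ± 0.45, 0.0216), named after their values were seen, as were Syk, Inpp5d, Fcgrt and the other Fc receptors above. Gp6, the collagen receptor of platelets, was at 0.99 ± 0.38 (adjusted p = 0.0838), and the NK cell receptor Ncr1 at -0.02 ± 0.30 (adjusted p = 0.971). Leaving out 0 Gy replicate 5, 5 of the 7 rose, where 15.5% of all genes did. At 2 Gy 0 of the 7 passed in limma, where 0.0528% of all genes did, with Clec4n, Clec4d and Gp6 at an unadjusted p under 0.05.

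The sequences before the gene starts were searched for 4 short motifs on both strands, since genes of each block moved together. RefSeq promoter entries on GRCm38.p6 were at hand for all 9 genes, 12 entries in all, and the 250 bases before each start were used. The PU.1 core GAGGAA was found in 6 of 9 genes, against 23.3% of 32851 promoter entries, and the C/EBP-type motif TTNNGNAA in 6 of 9, against 36.8%. The interferon-γ-activated site TTCNNNGAA was found in 1 of 9, Fcgr1, against 7.02%, and the octamer ATGCAAAT in 0 of 9, against 1.6%. A gene counted if any of its entries matched, while the shares are per entry. Fcgr3 and Fcer2a have more than 1 entry, so the counts and shares differ in unit. The PU.1 core occurred in genes that rose (Fcgr3 and Fcgr4), in genes that fell (Fcrl1, Fcrla and Fcmr) and in Fcgr1, and not in Fcgr2b, Fcer1g or Fcer2a. The 120 bases before the start of 5 of these genes are given to show where it sits, with the core in capitals as it reads on the gene's own strand (TTCCTC in each), and with the interferon site in capitals as well in Fcgr1.
Fcgr1: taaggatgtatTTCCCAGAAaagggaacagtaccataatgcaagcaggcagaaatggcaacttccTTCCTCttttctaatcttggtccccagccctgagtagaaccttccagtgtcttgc
Fcgr3: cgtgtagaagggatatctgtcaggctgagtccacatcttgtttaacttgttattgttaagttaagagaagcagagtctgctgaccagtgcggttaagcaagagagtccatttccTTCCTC
Fcgr4: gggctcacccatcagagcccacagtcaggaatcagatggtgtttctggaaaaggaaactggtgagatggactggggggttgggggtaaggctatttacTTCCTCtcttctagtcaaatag
Fcmr: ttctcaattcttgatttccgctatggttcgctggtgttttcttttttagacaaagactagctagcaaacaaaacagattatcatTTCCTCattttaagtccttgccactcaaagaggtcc
Fcrla: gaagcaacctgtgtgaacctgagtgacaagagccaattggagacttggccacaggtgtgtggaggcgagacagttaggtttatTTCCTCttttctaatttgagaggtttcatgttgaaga
They lie at chr3:96293970-96294089 (minus strand), chr1:171059404-171059523 (minus), chr1:171018806-171018925 (plus), chr1:130865657-130865776 (plus) and chr1:170927584-170927703 (minus) on GRCm38.p6. For Fcgr3, which has 2 starts, the stretch before the upstream one is shown. The core begins 36 bases before the start in Fcmr and 37 in Fcrla, and 22 bases before it in Fcgr4, 6 in Fcgr3 and 55 in Fcgr1. A match of letters in this window is a description and says nothing of binding, and the motifs do not overlap each other in the stretches shown.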

How the data were processed

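RNA of 18 blood samples was hybridised to 1-colour Agilent arrays. Per the file headers, the deposited processed signal is an intensity from Agilent Feature Extraction 9.5.3.1 after its own background correction, and probe positions are on mm7. The values deposited by the authors for the whole series, also an intensity, have a median of 20.7 in each column and served as an alternative; the steps behind them are not given in the sources used here. limma is named in the submitters' processing notes, with no step.

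Here the log2 of each spot was taken, spots of a probe without outlier flags were averaged, and the array's own 75th percentile was subtracted. A probe had to be well above background on 5 or more of 18 arrays (22038 of 41174 were), and the brightest stood for its gene. Gene names were updated with a RefSeq table. limma 3.58.1 in R 4.3.3 (statmod 1.5.0, data.table at version 1.17.8) fitted dose and kit over 18 arrays. Tests were 2-sided, errors beside fold changes are standard errors, and intervals are at 95%. Within-array differences of 4 pairs were tested by exact permutation of the arrays. The labels call the samples biologically distinct; p-values measure the spread between them.

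The genes and lists were chosen with earlier results of these data known. The rule named all 9 genes, up to 6 called members of the signalling and the other Fc receptor list, the 2 brightest markers of each cell type and the 3 genes with the highest r per gene, of which 1 is not reported here. Other genes were named after their values were seen. On simulated data of 13267 genes for 8 Gy against 0 Gy the fit found 38%, 80%, 92% and 98% of changes of 1, 2, 3 and 4 on the log2 scale, and called 8 unchanged genes. The simulation changed 200 genes and drew noise independently for each gene. Genes move together in the data, so these rates need not hold there. Alternatives were 16 other settings, each array left out in turn, and 4 settings chosen after seeing the data.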

Additional observations from a re-analysis of the deposited data

Results flagged for a closer look

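The highest or lowest array of a gene in a dose group stood far from the rest of its group in 5 of 27 cases examined. All 5 came from 0 Gy replicate 5 or 8 Gy replicate 1. Fcer2a, Fcrla and Fcmr had pairwise r of 0.919 to 0.973 over the 18 arrays. The cases are thus not independent, and the count is not set against a chance rate. Of the 5 cases, 3 concern the array labelled 0 Gy replicate 5. Fcer2a was at -0.84 there, where the next array was at 1.59 and the highest at 2.70. Fcrla was at 1.54, with the next at 3.09 and the highest at 4.22. Fcmr was at 3.00, with the next at 5.04 and the highest at 6.21. The other 2 concern 8 Gy replicate 1. Fcer2a was at -0.30 there, where the next array was at -1.99 and the lowest at -2.67, and Fcgr4 was at 2.74, with the next at 3.45 and the highest at 3.82. In each of the 5 cases the value lay toward the other of both doses, and the cause was not tested.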

How the results depend on the processing

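For 8 Gy against 0 Gy the 8 genes other than Fcgr2b kept their sign in every setting run. The count of 7 calls among the 9 genes was within 1.5 times of that in 14 of 20 settings and in 17 of 18 that left out an array (range 4 to 8). It was 4 with normexp, 4 with the replicate number as a block, and 0 with slide as a block, scan day as a block, brightness as a covariate, or slide as a block without 0 Gy replicate 5. Of all genes 2048 passed with normexp, 238 with the replicate block, and 0, 0, 0 and 6 in the last 4 fits. Same-numbered samples had correlations of their deviations from -0.348 to 0.482 (median 0.097, above 0.1 in 8 of 16 pairs). Samples of different numbers had -0.524 to 0.685 (median -0.020, above 0.1 in 27 of 91 pairs). Whether the numbers pair the samples was not tested further. At 2 Gy the count of 0 calls in limma (7 of 9 at an unadjusted p under 0.05) was 2 with normexp, 1 with quantile normalization, 2 with the replicate block, 8 with arrayWeights and 0 to 6 with an array left out. Of all genes, 53 passed with normexp, 40 with quantile normalization, 67 with the replicate block and 4763 with arrayWeights. Without 0 Gy replicate 5, which gave the count of 6, 927 of all genes did. The count was 6 without 0 Gy replicate 5 and 8 Gy replicate 1, 7 without 0 Gy replicate 5 and 2 Gy replicate 3, and 4 with normexp without 0 Gy replicate 5. In these fits 1189, 2390 and 348 of all genes passed. For 8 Gy against 2 Gy the count was 0 throughout.

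Reversals were those of small values. Fcgr2b at 8 Gy against 0 Gy (-0.02) became 0.048 with the mean of its probes, 0.033 with only both doses compared or with RiboPure alone, 0.037 without the kit term, 0.044 with the replicate block, 0.36 with brightness, and -0.26 to 0.12 with an array left out. At 8 Gy against 2 Gy, normexp gave -0.14 for Fcgr1, -0.044 for Fcer1g and 0.00090 for Fcrl1; without 0 Gy replicate 5 it gave -0.12 for Fcgr1 and -0.012 for Fcer1g. Fcrla became 0.16 with the slide or the replicate block, Fcgr1 -0.086 with arrayWeights, and Fcer1g between -0.0038 (without 2 Gy replicate 3) and 0.46 with an array left out. With slide as a block and no 0 Gy replicate 5, Fcer1g was -0.038 and Fcrla 0.48. Between the kits Fcgr3 became 0.014 with normexp, and with an array left out ranged from -0.21 to 0.18, and Fcgr4 from -0.40 to 0.13. The causes were not tested.

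Within arrays, normexp took Fcgr4 minus Fcgr1 (0.64) and Fcer2a minus Fcmr (1.78) past the threshold, and RiboPure arrays alone took Fcgr2b minus Fcgr3 (-1.33) below it. With an array left out these pairs ranged from 0.50 to 0.87, from 0.11 to 0.45 and from -1.58 to -1.20. Signal near background limits Fcer2a, Fcrl1 and Fcrla: with probes required on all 18 arrays, Fcer2a and Fcrla were not measured.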
